A study of Mus musculus with 14 samples.

Results

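Whether forced expression of Aoah changed gene expression differently in 2 mouse liver tumour models, called Luc and LucOS, was examined gene by gene. Aoah encodes acyloxyacyl hydrolase, a lipase that inactivates bacterial lipopolysaccharide by cutting off some of its fatty acids. For each gene, the Aoah change in a model was the mean of its Aoah tumours minus the mean of its vector tumours. The change in LucOS minus the change in Luc is called the difference below; a negative difference says that the LucOS change lay below the Luc change. All 14 tumours of the series entered, 8 from Luc and 6 from LucOS, and 13466 of the 29923 genes in the expression table were tested.

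Every tumour was a spontaneous hepatocellular carcinoma of a C57BL/6 mouse, raised by rapid tail-vein injection of plasmids with the SB100 transposase, which inserts the plasmid cassettes into the genome of cells that take them up. Luc tumours were given MYC and luciferase from a single cassette under the EF1a promoter (pT3-EF1a-MYC-IRES-luciferase), and LucOS tumours were given the same cassette with the OVA, SIN and SIY antigens added. The series text also lists activated beta-catenin (pT3-N90-CTNNB1) without saying which tumours carried it. The Aoah groups, 4 Luc and 3 LucOS tumours, received PKT2/CLP-Aoah, and the vector groups, again 4 Luc and 3 LucOS tumours, received the empty PKT2/CLP-Vec. RNA came from whole tumours, so each value mixes tumour cells with the immune, vascular and remaining liver cells of the sample, and fewer cells of a type cannot be told apart from less RNA per cell. Age, sex and time of collection were not in the labels used here, and the labels do not say that each tumour came from its own mouse, so the p-values measure the spread between these samples only.

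Expression is given in TPM, transcript abundance scaled to a fixed library total, with each gene's reads divided by its length. Differences and changes are on the scale log2(TPM + 1), where 1 unit is a doubling for a gene well above 1 TPM. For a gene near 0 TPM, 1 unit is more than a doubling, so this scale shrinks fold changes at low levels. The test was limma, a linear model fitted over all genes at once, with p-values adjusted by the Benjamini-Hochberg method and called at 0.05. Libraries were unequal in 2 respects that touch the results. LucOS Aoah tumour 3 had 16.6% of its TPM in mitochondrially encoded genes, against 3.41% to 8.45% in the other 13 tumours. Luc Aoah tumour 3 had 3.70% in small noncoding RNA, against 0.136% to 0.311% elsewhere.

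A single gene, the major urinary protein gene Mup13, passed the adjusted threshold for the difference, which is 0.00743% of the genes tested. The next smallest adjusted p in the limma fit was 0.350. At an unadjusted p under 0.05 there were 1378 genes, or 10.2%. Of these, 916 (6.80% of all genes) had a higher change in LucOS and 462 (3.43%) a lower one. This excess of higher genes depended on the scale. Over all genes tested 65.0% had a difference above 0 and 35.0% one below 0. The median difference over all genes was 0.23, from a median change of -0.24 in Luc and -0.02 in LucOS. The higher side held 66.5% of the genes at unadjusted p under 0.05, 55.7% after quantile normalization and 44.2% once each tumour was centred on its own median, which moved the median difference to -0.11. Leaving out Luc Aoah tumour 2 raised this share to 83.5% and the number of such genes to 3142. Leaving out LucOS vector tumour 1 lowered the share to 42.8%, and leaving out Luc vector tumour 3 lowered the number to 624. Median centring takes a single value off each tumour, so it moves every gene's difference, and every list median, by the same amount. List medians and shares above 0 under centring are therefore read against the all-gene median of -0.11.

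Within the models, 2988 genes changed with Aoah in Luc, 22.2% of those tested, with 1068 (7.93%) rising and 1920 (14.3%) falling. In LucOS, with fewer tumours, 130 changed, or 0.965%, with 101 (0.750%) rising and 29 (0.215%) falling. A total of 120 genes (0.891%) changed in both, 94 rising in both and 26 falling in both, and 0 genes were called in opposite directions. The shared genes were 92.3% of the LucOS calls and 4.02% of the Luc calls. The counts rested on single tumours: the Luc count was 855 without Luc Aoah tumour 4 and 5251 without Luc Aoah tumour 2, and the LucOS count was 13 without LucOS Aoah tumour 1 and 353 without LucOS vector tumour 2. Whether a gene called in Luc alone differed between the models was read from the difference and not from the missing LucOS call. Among the 1378 genes at unadjusted p under 0.05, 694 had a negative Luc and a positive LucOS change, and 291 had the reverse. A further 219 were negative in both models and 173 positive in both. Over all tested genes 24.5% were negative in Luc and positive in LucOS, against 50.4% of the 1378; the p-value and the signs come from the same tumours, so these shares are a description.

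**Figure D1:**
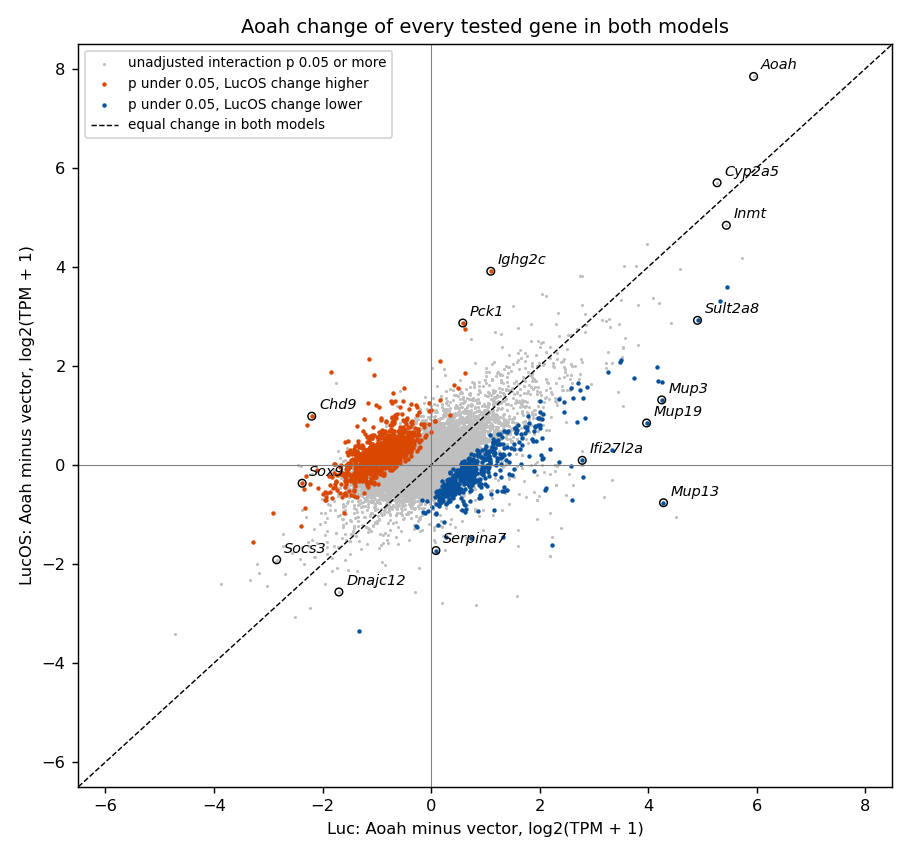
The points are 13466 genes, with their Aoah minus vector change in Luc on the x axis and in LucOS on the y axis, both in log2(TPM + 1) units; the dashed line marks equal change. Coloured points have an unadjusted limma p under 0.05 for the difference (916 above the line, 462 below it), and the labelled genes Mup13, Mup3 and Mup19 lie below the line while Ighg2c and Pck1 lie above it.

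The largest negative differences were those of the major urinary proteins. These small lipocalins are made by hepatocytes, bind pheromones and leave in the urine, and in mouse liver their transcription follows growth hormone acting through the transcription factor Stat5, with higher output in males. They sit as a tandem cluster of near-copies on chromosome 4. Stretches of 150 bases that end just before the start of 3 of the genes described here are shown to make the likeness of the copies visible. They are from the RefSeq promoter table on build GRCm38.p6, 5′ to 3′ on the minus strand, with a TATATAA run in capitals. Mup3 lies at chr4:62087318-62087467, Mup17 at chr4:61595833-61595982 and Mup19 at chr4:61782225-61782374.
Mup3: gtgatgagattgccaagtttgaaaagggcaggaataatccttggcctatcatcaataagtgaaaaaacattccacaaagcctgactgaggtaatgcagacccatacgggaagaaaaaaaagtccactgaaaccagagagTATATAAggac
Mup17: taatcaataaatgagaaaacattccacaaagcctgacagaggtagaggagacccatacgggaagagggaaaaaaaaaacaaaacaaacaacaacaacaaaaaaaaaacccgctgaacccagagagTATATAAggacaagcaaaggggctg
Mup19: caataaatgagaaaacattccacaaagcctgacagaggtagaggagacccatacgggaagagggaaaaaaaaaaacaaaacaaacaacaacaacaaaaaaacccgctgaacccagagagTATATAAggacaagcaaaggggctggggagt

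TATATAA, on either strand, was found in the promoter windows, which also reach past the start, of 12 of the 13 tested Mup genes in the RefSeq table, against 3.24% of all 32851 promoters. TTCNNNGAA, the usual form of a Stat5 site, was found in 0 of the 13 and in 8.30% of all promoters, which says only that these letters are not within this window. The copies also share transcript sequence, and that bears on which of them a read is given to. Of the distinct 100-base stretches in the annotated Mup13 transcripts, 83.6% also occur in another gene, most often Mup19. The figure was 100% for Mup19 and Mup22, but 2.23% for Mup3 and 4.5% for Mup21 (GENCODE M21). Values of single Mup genes other than Mup3, Mup5, Mup6 and Mup21 are therefore uncertain, since the authors' counting could divide shared reads among copies.

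Mup13 was the gene that passed. In Luc it stood at 1.4, 0.00, 0.14 and 1.71 TPM with vector and at 14.4, 42.6, 53.5 and 27.9 TPM with Aoah, so the Luc groups did not overlap. In LucOS it stood at 2.65, 2.99 and 0.39 TPM with vector and at 0.67, 0.92 and 0.29 TPM with Aoah, and there the groups overlapped. It rose by 4.28 in Luc (SE 0.44, limma adjusted p = 5.8e-05) and its LucOS change was -0.76 (SE 0.51, adjusted p = 0.62). The difference was -5.05 (95% interval -6.49 to -3.60, adjusted p = 0.0315). The call was not stable: when single tumours were dropped, for all 14 of them, the adjusted p ran from 0.00949 to 0.193 and passed 4 times, namely without Luc Aoah 1, Luc vector 1, Luc vector 4 or LucOS vector 3, while the difference stayed between -5.53 and -4.77. It was also lost with a pseudocount of 0.1 (adjusted p = 0.407) and with median centring (0.0541).

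Mup3, whose transcript is nearly its own, moved the same way at far higher levels. It stood at 64.4, 39.4, 63.4 and 112 TPM in Luc vector tumours and at 1380, 941, 1172 and 1654 TPM in Luc Aoah tumours. LucOS vector tumours held 186, 222 and 97.3 TPM, and LucOS Aoah tumours 322, 293 and 663 TPM. The groups did not overlap in either model, the LucOS vector tumours lay above 3 of the 4 Luc vector tumours, and every LucOS Aoah tumour lay below every Luc Aoah tumour. Mup3 rose by 4.25 in Luc; in LucOS its change of 1.31 did not pass (adjusted p = 0.15). The difference was -2.94 (95% interval -4.06 to -1.81), with a limma unadjusted p of 5.7e-05 and an adjusted p of 0.350. In the authors' deposited tables of the same tumours the gap between its fold changes was -3.33. A two-sided normal test of that gap over its combined standard error gave an adjusted p of 2.7e-06.

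All 20 Mup genes tested had a difference below 0, against 35.0% of all genes, with a median of -2.05. At a limma unadjusted p under 0.05, 14 of them were lower, where the background for that direction is 3.43%. This count was 10 to 16 with single tumours left out. Mup5 and Mup12, both among the 14, reached 1 TPM only in Luc Aoah tumours, so the filter itself favoured a negative difference for them. Most copies share transcript sequence, so the 20 are not separate observations and these counts are a description. This family list was drawn up after the data had been seen; the broader list of male-biased liver genes, which holds 15 of the Mup genes, had 19 of 20 tested members below 0. By limma, 18 of the 20 Mup genes rose in Luc (median change 2.58, where 7.93% of all genes rose). In LucOS 0 of 20 changed past the threshold (median 0.79, where 0.965% of all genes changed). In the authors' deposited tables of the same tumours, Mup7, Mup10, Mup11, Mup14 and Mup22 rose in LucOS past an adjusted p of 0.05. There Mup6, Mup13, Mup15, Mup16 and Mup17 had negative LucOS fold changes, none past that threshold. The family members with the most RNA, Mup20 and Mup22, had differences of -1.88 and -2.19. Mup22 averaged 106 TPM ± 65.1 (SD, n = 4) and 1701 ± 619 (SD, n = 4) in Luc vector and Luc Aoah tumours, and 260 ± 100 (SD, n = 3) and 1011 ± 303 (SD, n = 3) in LucOS. Mup21 differed by -0.16 and Mup1 by -0.13, the smallest gaps of the family.

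Summed over the family, Mup RNA made up 294 to 684 TPM in Luc vector tumours and 3987 to 7293 TPM in Luc Aoah tumours. The LucOS vector tumours stood at 1069, 1672 and 793 TPM, all above every Luc vector tumour, and the LucOS Aoah tumours at 2474, 2141 and 4318 TPM. So the LucOS vector tumours stood higher than the Luc vector tumours, and 2 of the 3 LucOS Aoah tumours stood lower than every Luc Aoah tumour. The median difference of the family lay between -2.52 and -1.84 when single tumours were dropped, and was -2.39 under median centring and -2.19 under quantile normalization. With tumours weighted by their estimated quality it was -1.0 and 16 of the 20 lay below 0; LucOS vector tumour 3 then carried a weight of 18.7, against at most 4.06 for the others. In the authors' deposited tables, the gap between the LucOS and Luc fold changes was below 0 for all 18 Mup genes with a value. It passed an adjusted p of 0.05 for 8 of them, where 0.392% of all identifiers passed in either direction. Those tables come from the same tumours as the TPM, so the shared signs are not independent support.

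Members of the male-biased list that are not Mup genes gave a mixed picture. Slco1a1, an organic anion transporter, had a difference of -1.07 (limma unadjusted p = 0.0369), and it rose by 1.72 in Luc from 0.05 to 2.57 TPM on average. Elovl3, a fatty acid elongase, had a difference of -0.98, Serpina1e one of -0.87, C6 one of -0.06 and C8a one of 0.04, none with an unadjusted p under 0.05. Of the 15 genes of the female-biased list, 2 were higher and 1 lower at unadjusted p under 0.05, with a median of 0.16 that ran from -0.03 to 0.48 with single tumours left out. Xist, the RNA of the inactive X chromosome, was present in all 14 tumours at 6.01 to 69.7 TPM. Its difference was 1.98 (unadjusted p = 0.0283), with LucOS Aoah tumour 3 at 69.7 TPM and the other 2 LucOS Aoah tumours at 20.6 and 12.9 TPM. Without that tumour it was 1.31 (unadjusted p = 0.104); the part that sex played in any result was not tested.

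**Figure D2:**
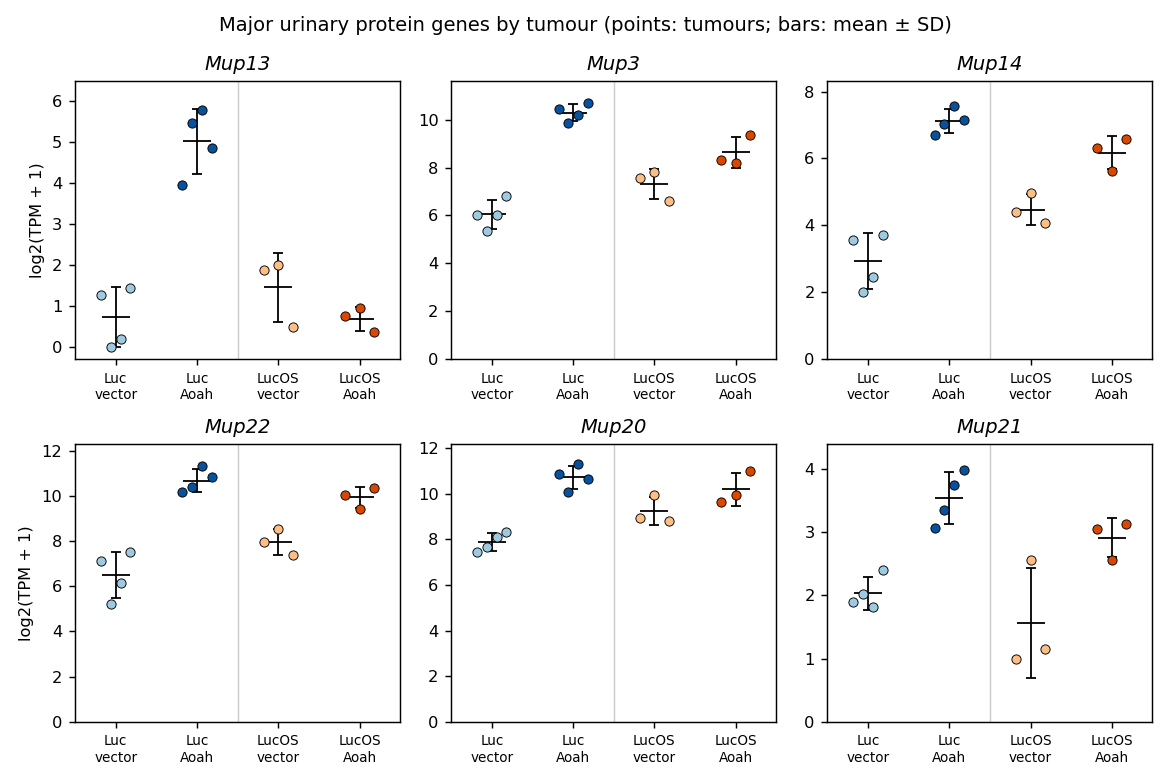
Expression of 6 Mup genes in log2(TPM + 1) on the y axis for each tumour of the 4 groups on the x axis; points are tumours and bars show the mean and SD. Mup13 is high in Luc Aoah tumours alone, the gap between Aoah and vector means is narrower in LucOS for Mup3, Mup14, Mup22 and Mup20, and the Mup21 gaps are 1.5 in Luc and 1.34 in LucOS.

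Beyond the Mup genes, the genes ranked first on the lower side fell into 2 patterns. Serpina7, which encodes thyroxine-binding globulin, was low with Aoah in LucOS alone. Luc tumours stood at 101, 110, 89.6 and 105 TPM with vector and at 125, 109, 123 and 79.7 TPM with Aoah, which overlap. LucOS tumours stood at 201, 387 and 178 TPM with vector and at 66.8, 75.2 and 73.4 TPM with Aoah. Serpina7 fell by 1.73 in LucOS (limma adjusted p = 0.0097), its Luc change was 0.09 (adjusted p = 0.78), and the difference was -1.82 (95% interval -2.55 to -1.09, adjusted p = 0.350). All 3 LucOS vector tumours stood above every Luc tumour, and all 3 LucOS Aoah tumours stood below every one.

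The other pattern was a rise in Luc with a smaller change in LucOS. Nat8f1, an N-acetyltransferase family gene, stood at 60.1, 64.9, 42.5 and 51.2 TPM in Luc vector and at 138, 118, 144 and 175 TPM in Luc Aoah tumours. LucOS tumours held 80.0, 77.0 and 81.0 TPM with vector and 85.1, 90.2 and 80.0 TPM with Aoah. It rose by 1.38 in Luc, its LucOS change was 0.10, and the difference was -1.28 (95% interval -1.83 to -0.74). The 6 LucOS tumours fell in a narrow band between the Luc vector and the Luc Aoah tumours.

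Nudt7, a peroxisomal hydrolase that acts on coenzyme A, rose by 2.04 in Luc from 47.8 to 69.0 TPM with vector to 177 to 329 TPM with Aoah. LucOS held it at 89.4 to 120 TPM with vector and at 140 to 165 TPM with Aoah, a change of 0.55 (adjusted p = 0.37), and the difference was -1.49 (95% interval -2.18 to -0.81). Haao, which works in the breakdown of tryptophan, rose by 1.22 in Luc, changed by 0.13 in LucOS (adjusted p = 0.86) and differed by -1.08 (-1.58 to -0.58). In both genes every LucOS Aoah tumour stood below every Luc Aoah tumour.

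Gpx1 and Selenow encode selenoproteins, proteins that carry selenocysteine; Gpx1 is a glutathione peroxidase that removes hydrogen peroxide. Gpx1 stood at 661 to 950 TPM in Luc vector and 2483 to 3490 TPM in Luc Aoah tumours, and at 1081 to 1292 TPM and 1891 to 2215 TPM in LucOS. It rose by 1.98 in Luc, its LucOS change was 0.80 (limma adjusted p = 0.091), and the difference was -1.18 (95% interval -1.76 to -0.60). Selenow rose in both models, by 1.99 in Luc and by 0.96 in LucOS (adjusted p = 0.031), with a difference of -1.04 (-1.57 to -0.51). For both genes every LucOS vector tumour stood above every Luc vector tumour. The LucOS Aoah tumours stood below all 4 Luc Aoah tumours for Gpx1 and below 3 of the 4 for Selenow.

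The remaining genes on this side were at lower levels. Etaa1os averaged 0.50 and 1.86 TPM in Luc and 1.80 and 1.06 TPM in LucOS (difference -1.37). Catsperz, known from sperm, averaged 1.54 and 9.28 TPM in Luc and 0.78 and 0.57 TPM in LucOS (difference -2.01). Kcne3, a potassium channel subunit, averaged 1.55 and 5.33 TPM in Luc and 4.27 and 3.15 TPM in LucOS (difference -1.54). Mup14 completed the 12 with the smallest p-values. Of these genes Etaa1os, Catsperz, Kcne3 and Mup14 rose in Luc, and none changed past the threshold in LucOS.

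Ranked by size among genes at unadjusted p under 0.05, the lower side held Mup13, Mup15, Mup19, Mup17, Mup3 and Ifi27l2a. Ifi27l2a is induced by interferon. It rose by 2.78 in Luc, from 3.37 to 7.95 TPM with vector to 23.7 to 46.0 TPM with Aoah. In LucOS it stood at 30.1, 43.6 and 108 TPM with vector and at 31.7, 30.7 and 177 TPM with Aoah. That was a change of 0.09 (limma adjusted p = 0.98). The difference was -2.69 (95% interval -4.34 to -1.04).

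On the higher side the genes ranked first mostly fell in Luc from a raised vector level. A raised Luc vector level was common: it was the group mean farthest from the other groups in 40.2% of all genes. The share was 42.8% among the 1378 genes of either direction at unadjusted p under 0.05. It was not counted for the higher genes alone, so it does not compare the higher side with all genes. Sox9, a transcription factor of bile duct and progenitor cells, had the smallest p-value. It stood at 3.24, 7.06, 9.85 and 6.09 TPM in Luc vector tumours and at 0.17, 1.00, 0.18 and 0.31 TPM in Luc Aoah tumours. In LucOS it was low throughout, at 0.35, 1.57 and 0.77 TPM with vector and at 0.24, 0.47 and 0.56 TPM with Aoah. Sox9 fell by 2.38 in Luc, its LucOS change was -0.37 (limma adjusted p = 0.75), and the difference was 2.01 (95% interval 1.07 to 2.94). The Luc vector tumours stood above all 10 others.

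Bcl3, an atypical inhibitor protein of NF-kB, gave the same shape. Luc vector tumours stood at 20.2, 16.8, 28.8 and 25.9 TPM and Luc Aoah tumours at 5.95, 9.51, 4.31 and 4.51 TPM. LucOS tumours overlapped, at 5.96, 14.3 and 10.4 TPM with vector and 10.2, 6.6 and 13.7 TPM with Aoah. Bcl3 fell by 1.79 in Luc, its LucOS change was 0.01, and the difference was 1.80 (95% interval 0.81 to 2.79). Apoa4, an apolipoprotein made by liver under fasting and lipid load, fell by 0.95 in Luc (326 to 686 TPM with vector, 191 to 340 TPM with Aoah). Its LucOS change was 0.54 (145 to 217 TPM with vector, 214 to 295 TPM with Aoah; limma adjusted p = 0.47), and the difference was 1.49 (0.70 to 2.28).

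Akap13, a scaffold for protein kinase A, fell by 1.08 in Luc, its LucOS change was 0.77 (limma adjusted p = 0.33) and the difference was 1.85 (95% interval 0.95 to 2.75). Adcy2, an adenylate cyclase, fell by 1.59 in Luc, from 1.65 to 3.00 TPM with vector to 0.00 to 0.10 TPM with Aoah. Its LucOS change was -0.57 and the difference 1.02. Adcy2 reached 1 TPM only in Luc vector tumours, so the filter itself favoured a Luc fall and a positive difference for it. Fbf1, Aqp4, Cfap44 and Trpm6 also fell in Luc, with differences of 1.77, 1.27, 1.23 and 1.07. By limma, Bicc1 and Ap1g2 passed in neither model, with differences of 1.76 and 1.36. In the authors' deposited tables Bicc1 rose and Adcy2 fell in LucOS past an adjusted p of 0.05. By limma, the 12 genes with the smallest p on this side thus held 9 that fell in Luc and 1, Ighg2c, that rose in LucOS. Over all genes 14.3% fell in Luc and 0.750% rose in LucOS. Genes of both sides were picked by the sign of the difference, which these changes enter, so the counts are a description.

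Ighg2c, the constant gene of the IgG2c antibody isotype, was the only gene of these 12 with a limma call in LucOS. It stood at 3.02, 0.46 and 2.79 TPM in LucOS vector tumours and at 47.7, 36.3 and 40.7 TPM in LucOS Aoah tumours. In Luc it stood at 13.6, 2.95, 7.88 and 9.49 TPM with vector and at 15.4, 15.6, 11.7 and 31.9 TPM with Aoah, which overlap. Ighg2c rose by 3.91 in LucOS (limma adjusted p = 0.0033), its Luc change was 1.10 (adjusted p = 0.065), and the difference was 2.81 (95% interval 1.46 to 4.16). The LucOS vector tumours were the lowest group and the LucOS Aoah tumours the highest.

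The other plasma cell genes did not set the models apart to that degree. Of 14 tested genes of the plasma cell list, Ighg2c and Ighg1 were higher at unadjusted p under 0.05. The median difference was 0.54, or 0.20 with median centring (all genes -0.11). Ighg1, the IgG1 constant gene, averaged 0.36 and 0.51 TPM in Luc and 0.41 and 10.3 TPM in LucOS, with a difference of 1.93 (limma unadjusted p = 0.047) and no call in either model. Its LucOS Aoah mean rested on tumour 3, at 27.7 TPM against 1.82 and 1.51 TPM in the other 2, and without it the difference was 0.79 (unadjusted p = 0.0700). Summed over the heavy chain constant genes, RNA stood at 9.09 to 93.3 TPM in Luc vector, 53.3 to 155 TPM in Luc Aoah, 3.95 to 27.3 TPM in LucOS vector and 97.5 to 182 TPM in LucOS Aoah tumours. Ighg2c made up 13.8% to 32.5% of that sum in Luc vector and 12.1% to 21.9% in Luc Aoah tumours. In LucOS its share was 11.1% to 24.6% with vector and 26.3% to 41.7% with Aoah.

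**Figure D3:**
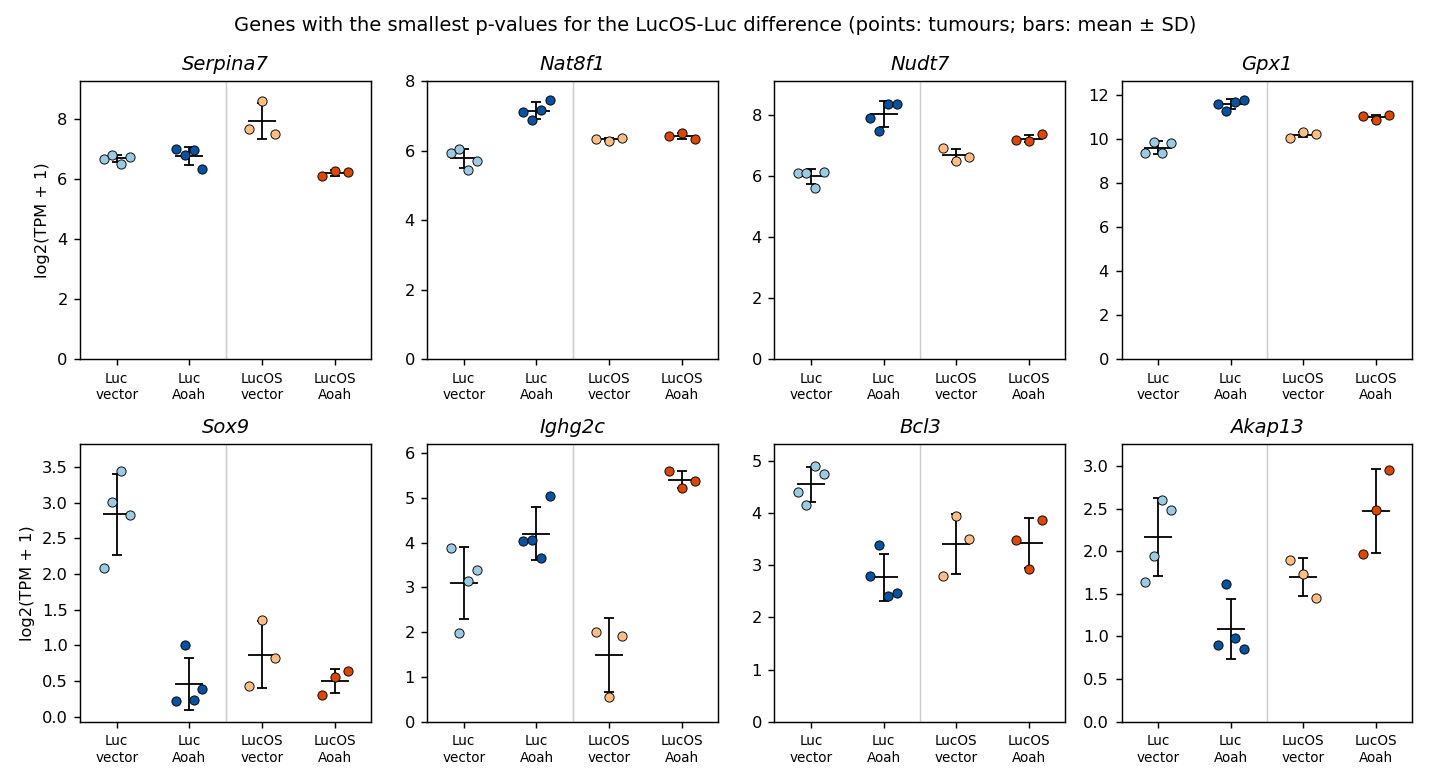
Expression in log2(TPM + 1) on the y axis for 8 genes among those with the smallest p-values for the difference, by tumour in the 4 groups on the x axis; points are tumours and bars the mean and SD. Serpina7 is low in LucOS Aoah tumours, Sox9 is high in Luc vector tumours alone, and Ighg2c is highest in the 3 LucOS Aoah tumours.

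The 6 largest differences on the higher side were Chd9, Ighg2c, Pck1, mt-Nd4l, Nfic and Ubr4. All but Ighg2c varied widely within groups. Chd9, a chromatin remodeller, ranged from 122 to 698 TPM in Luc vector and from 33.9 to 253 TPM in LucOS vector tumours, and its difference of 3.18 had an interval of 0.61 to 5.75. Pck1, the rate-limiting enzyme of gluconeogenesis, stood at 6.24, 64.0 and 13.1 TPM in LucOS vector and at 118, 67.5 and 316 TPM in LucOS Aoah tumours. Its LucOS change was 2.87 (limma adjusted p = 0.10), its Luc change 0.58, and the difference 2.28 (95% interval 0.13 to 4.43). Nfic and Ubr4 had differences of 2.16 and 2.15 and mt-Nd4l one of 2.23. By limma, none of Chd9, Pck1, mt-Nd4l, Nfic and Ubr4 changed past the threshold in either model. In the authors' deposited tables, Chd9 and Ubr4 fell in Luc and Pck1 rose in both models past an adjusted p of 0.05.

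The 48 fixed gene lists were then read for the difference, against 6.80% of all genes higher and 3.43% lower at unadjusted p under 0.05. Counts and medians of these lists depended on single tumours, as the values given beside them show. Conjugation enzymes, which attach sulphate, glucuronate or other groups to drugs and hormones, had 4 of 33 genes lower and 1 higher at unadjusted p under 0.05, with a median of -0.44 against 0.23 for all genes. With single tumours left out the lower count was 3 to 8 and the median -0.58 to -0.17, with -0.17 reached without LucOS Aoah tumour 2 and -0.22, with 5 higher and 3 lower, without LucOS vector tumour 2. The lower count was 1 with a pseudocount of 0.1 and 10 with median centring. The 4 included the sulphotransferases Sult2a7 (difference -1.38), Sult2a8 (-1.99) and Sult3a1 (-1.44) and the glycosyltransferase Ugt3a1 (-1.29). In the authors' deposited tables their gaps were -0.54, -2.58, -6.45 and -1.21 in that order. Only the Sult2a8 gap passed an adjusted p of 0.05. Sult2a7, Sult2a8 and Ugt3a1 rose in both models: Sult2a8 averaged 4.87 and 180 TPM in Luc and 6.81 and 60.0 TPM in LucOS. In the list as a whole 22 genes rose in Luc and 10 in LucOS, where 7.93% and 0.750% of all genes rose. Cytochromes P450 of families 1 to 4 had a median of -0.09, with 2 of 47 lower, Cyp2d40 among them (-1.10), and 1 higher. That median ran from -0.34 without Luc Aoah tumour 3 to 0.32 without LucOS vector tumour 2.

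Single genes of other liver functions stood apart from their lists. Slco1b2, the uptake transporter of bile acids and drugs, rose in Luc from 186 to 490 TPM on average and stood at 251 and 310 TPM in LucOS, a difference of -1.05. Idi1 of cholesterol synthesis rose by 1.08 in Luc and changed by 0.04 in LucOS, a difference of -1.05, while its list had a median of 0.06. Mbl1, a mannose-binding lectin of complement activation, rose by 1.43 in Luc and changed by 0.06 in LucOS, a difference of -1.37. C8g, a part of the terminal complement complex, rose in both models, by 2.57 and 1.55, a difference of -1.02. Of 30 tested complement and coagulation genes, Mbl1 and C8g were the only 2 lower at unadjusted p under 0.05, a count of 1 to 3 with single tumours left out.

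Of 22 glycolysis and gluconeogenesis genes 21 had a difference above 0, against 65.0% of all genes, and 3 were higher at unadjusted p under 0.05 (background 6.80%), with a median of 0.73. The count was 0 without Luc Aoah tumour 3, LucOS vector tumour 1, LucOS vector tumour 3 or Luc vector tumour 3, and 10 without Luc Aoah tumour 2. The median lay between 0.50 and 0.89 in those settings. It was 0.39 with median centring (all genes -0.11), where 17 of 22 were above 0. Gapdh averaged 1514 and 788 TPM in Luc and 885 and 1004 TPM in LucOS, a difference of 1.26, and Gpi1 differed by 1.11. Fatty acid oxidation genes had 4 of 25 higher, among them Fgf21 (1.57), Pdk4 (1.52) and Cpt1a (1.45). Cpt1a, which brings fatty acids into mitochondria, fell in Luc and did not change past the threshold in LucOS. The median of this list was 0.27, near that of all genes, and -0.07 with median centring (all genes -0.11). Its count was 1 without LucOS vector tumour 1 and 7 without Luc vector tumour 2. Nuclear genes of the respiratory chain had a median of -0.02, with 11 of 22 above 0 and 1 higher.

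Tumour and fetal liver markers had 4 of 20 higher and 0 lower. H19, an imprinted noncoding RNA, fell in Luc from an average of 11280 to 2941 TPM and stood at 5467 and 4637 TPM in LucOS, a difference of 1.99 (limma unadjusted p = 0.019). Igf2, the growth factor gene next to it, fell by 1.35 in Luc, changed by -0.03 in LucOS and differed by 1.33. Igf2bp3 differed by 0.95 and Sox4 by 0.79. The list median was 0.38, near the 0.23 of all genes, and 0.04 with median centring (all genes -0.11). Leaving out single tumours moved it from -0.13 without LucOS Aoah tumour 2 to 0.68 without LucOS Aoah tumour 3, and the count of higher genes was 1 without LucOS vector tumour 1 and 3 to 5 otherwise.

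In the lipopolysaccharide sensing and NF-kB list, which holds the receptor complex, its adaptors and the NF-kB subunits, 7 of 20 genes were higher and 1 lower at unadjusted p under 0.05, with a median of 0.73. The higher genes were the adaptor Ticam1 (1.02), the kinase Irak1 (1.15), the subunits Rela (1.58), Relb (0.87) and Nfkb2 (1.36), and the feedback inhibitors Nfkbia (0.88) and Tnfaip3 (0.96). Il1b, the cytokine, was the lower one (-0.89). Ticam1, Irak1, Rela and Nfkb2 fell in Luc, and no gene of the list changed past the threshold in LucOS. The count of 7 became 0 without LucOS Aoah tumour 3, Luc Aoah tumour 3, Luc vector tumour 3 or LucOS vector tumour 1, 2 to 4 without any of 6 others, and 8 to 11 without LucOS vector tumour 2, Luc vector tumour 2, Luc Aoah tumour 2 or LucOS Aoah tumour 2. The median stayed between 0.47 and 0.98 and was 0.39 with median centring (all genes -0.11). Tnfaip3 differed by 0.60 without LucOS Aoah tumour 3 (unadjusted p = 0.109).

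Circadian clock genes had 4 of 15 higher, Per1 (1.39), Per2 (1.09), Cry2 (1.22) and Usp2 (1.59), with a median of 0.75 and 14 of 15 above 0 (all genes 65.0%). The count was 3 to 9 with single tumours left out, highest without LucOS vector tumour 2, and 0 without the Aoah tumours numbered 3 of both models. With median centring the median was 0.41 (all genes -0.11) and 12 of 15 were above 0. Per1, Per2 and Cry2 fell in Luc. Times of collection were not in the labels used here, and their part in these values was not tested. Immediate early genes, which respond to stress and growth signals within minutes, had 4 of 15 higher: Ier3 (1.93), Egr1 (1.39), Junb (1.22) and Klf4 (0.78), against 6.80% of all genes. The count was 1 without LucOS Aoah tumour 3 and 9 without Luc Aoah tumour 2. Klf4 was near the filter on low values and was not tested without LucOS Aoah tumour 3. Ier3 averaged 18.3 and 1.67 TPM in Luc and 4.25 and 1.72 TPM in LucOS. Stat3, the mediator of interleukin-6, differed by 1.58 and fell in Luc alone by the adjusted threshold. Its list of acute phase genes had a median of 0.39, or 0.05 with median centring (all genes -0.11). That list median was 0.19 without LucOS Aoah tumour 3, -0.10 without LucOS vector tumour 1 and 0.95 without LucOS vector tumour 2.

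The mitochondrially encoded genes had the highest list median, 1.24, with 7 of 13 higher and all 13 above 0. Among them mt-Nd4l, mt-Nd4 and mt-Nd5, subunits of complex I, had differences of 2.23, 2.04 and 1.94. Summed over the 13 genes, LucOS Aoah tumour 3 held 159282 TPM and the other 2 LucOS Aoah tumours 60654 and 59142 TPM, inside the range of 31942 to 80824 TPM of the 7 vector tumours. Without LucOS Aoah tumour 3 the median was 0.84 and 0 of the 13 were higher at unadjusted p under 0.05. The count was also 0 without LucOS vector tumour 3, 3 without Luc vector tumour 3, and 10 without LucOS vector tumour 2 or Luc vector tumour 2.

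T cells recognise antigens such as those added in LucOS. Of 15 T cell receptor complex and marker genes, 11 rose with Aoah in Luc and 3 in LucOS, where 7.93% and 0.750% of all genes rose. The median difference was -0.01 (-0.43 without LucOS Aoah tumour 3 and 0.21 without LucOS Aoah tumour 2), and 0 of 15 were higher or lower at unadjusted p under 0.05. Trbc2, a constant gene of the T cell receptor, averaged 4.12 and 25.0 TPM in Luc and 9.19 and 32.7 TPM in LucOS, a difference of -0.60, and Cd3d one of -1.0. Among 14 genes of CD8 T cells and cytotoxicity, Gzma, granzyme A, was the 1 lower gene, a count of 5 without LucOS vector tumour 2 and 0 without LucOS vector tumour 1. Gzma rose in Luc from 4.04 to 30.1 TPM on average and stood at 19.3 and 30.0 TPM in LucOS, a difference of -1.81 (limma unadjusted p = 0.020).

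Receptor repertoire measures, read from the same RNA by the authors, were compared by exact permutation of the model labels within the Aoah and within the vector tumours, with all measures but entropies and clonalities as log2(value + 1). The permutation is exact only if the models do not differ among vector tumours or among Aoah tumours. Its p-values therefore do not test the difference in response alone. Of 20 measures, 0 passed an adjusted p of 0.05, and 1 had a two-sided exact permutation p under 0.05. It was the number of T cell receptor beta clones (exact permutation p = 0.0441, adjusted p = 0.414). This number was 12, 5, 10 and 4 in Luc vector and 135, 77, 91 and 112 in Luc Aoah tumours. In LucOS it was 71, 17 and 29 with vector and 81, 87 and 157 with Aoah. The groups did not overlap in either model, and all 3 LucOS vector tumours stood above every Luc vector tumour. These numbers are not scaled to sequencing depth.

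Interferon lists rested on few tumours. Of 20 genes of the interferon gamma response, which includes the guanylate-binding GTPases and T cell chemokines, 19 had a difference above 0, against 65.0% of all genes, with a median of 0.69 and 1 gene higher at unadjusted p under 0.05. That gene was Ciita, the master regulator of MHC class II, at 0.78 and 1.02 TPM on average in Luc and 0.67 and 3.68 TPM in LucOS. Cxcl9 rose in both models, by 2.11 and 3.40, and Cxcl10 in LucOS by 2.39, with differences of 1.30 and 1.08. Without LucOS Aoah tumour 3 the list median was -0.01, with 10 of 20 above 0, and Ciita, Cxcl9 and Cxcl10 differed by 0.64, 0.61 and 0.45. Without LucOS vector tumour 1 the median was 0.15, and without LucOS Aoah tumour 2 it was 1.16 with 6 genes higher. The summed level of the list was 3309 TPM in that tumour and 1053 and 713 TPM in the other LucOS Aoah tumours.

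All 9 MHC class II genes had a difference above 0 (all genes 65.0%), with a median of 0.73 that became 0.16 without LucOS Aoah tumour 3, where 6 of 9 were above 0. With median centring, where the median of all genes was -0.11, 7 of 9 were above 0. H2-DMa differed by 1.19 and Cd74, the invariant chain, by 1.56 (0.76 and 0.94 without LucOS Aoah tumour 3). By limma neither changed past the threshold in either model. In the authors' deposited tables H2-DMa rose in both models and Cd74 in LucOS past an adjusted p of 0.05. The type I interferon list went below 0 in 18 of 22 genes, with a median of -0.36 and 0 genes at unadjusted p under 0.05 in either direction. Xaf1, Ifit3 and Ifit1 rose in Luc, by 1.96, 2.18 and 1.69, with differences of -1.28, -1.47 and -1.11. Without LucOS Aoah tumour 3 the list median was -1.21, with 8 of 20 genes lower at unadjusted p under 0.05. Without LucOS vector tumour 1 it was -0.80, with 9 of 22 lower at that level, and without LucOS Aoah tumour 2 or LucOS vector tumour 2 it was -0.02 and -0.04. Stat2 went the other way, at 1.01, or 0.56 without LucOS Aoah tumour 3.

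Other cell types gave few genes. Of 18 stellate cell, fibroblast and matrix genes, the collagens Col1a1 (1.82) and Col5a1 (0.81) were higher and Tagln, a smooth muscle and myofibroblast gene, was lower (-1.39); the higher count was 2 to 5 and the lower 1 to 3 with single tumours left out. The median difference of that list was -0.10 (all genes 0.23), and 11 of the 18 genes were below 0, against 35.0% of all genes. Col1a1 averaged 4.67 and 3.15 TPM in Luc and 2.04 and 7.05 TPM in LucOS. Of 14 Kupffer cell genes Folr2 was lower (-1.31), a count of 0 to 2 with single tumours left out. It rose in Luc from 3.04 to 10.8 TPM on average and stood at 3.83 and 4.82 TPM in LucOS. Bcl6, a repressor used by follicular helper T cells and also expressed by hepatocytes, differed by 1.35, and Ccnd1, cyclin D1, by 1.68; neither changed past the threshold in either model. In 26 hepatocyte identity genes 1 was higher and 0 lower, and the median was 0.54. That median was 0.20 with median centring (all genes -0.11), 0.28 without LucOS vector tumour 1 and 0.84, with 10 higher, without LucOS vector tumour 2.

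**Figure D4:**
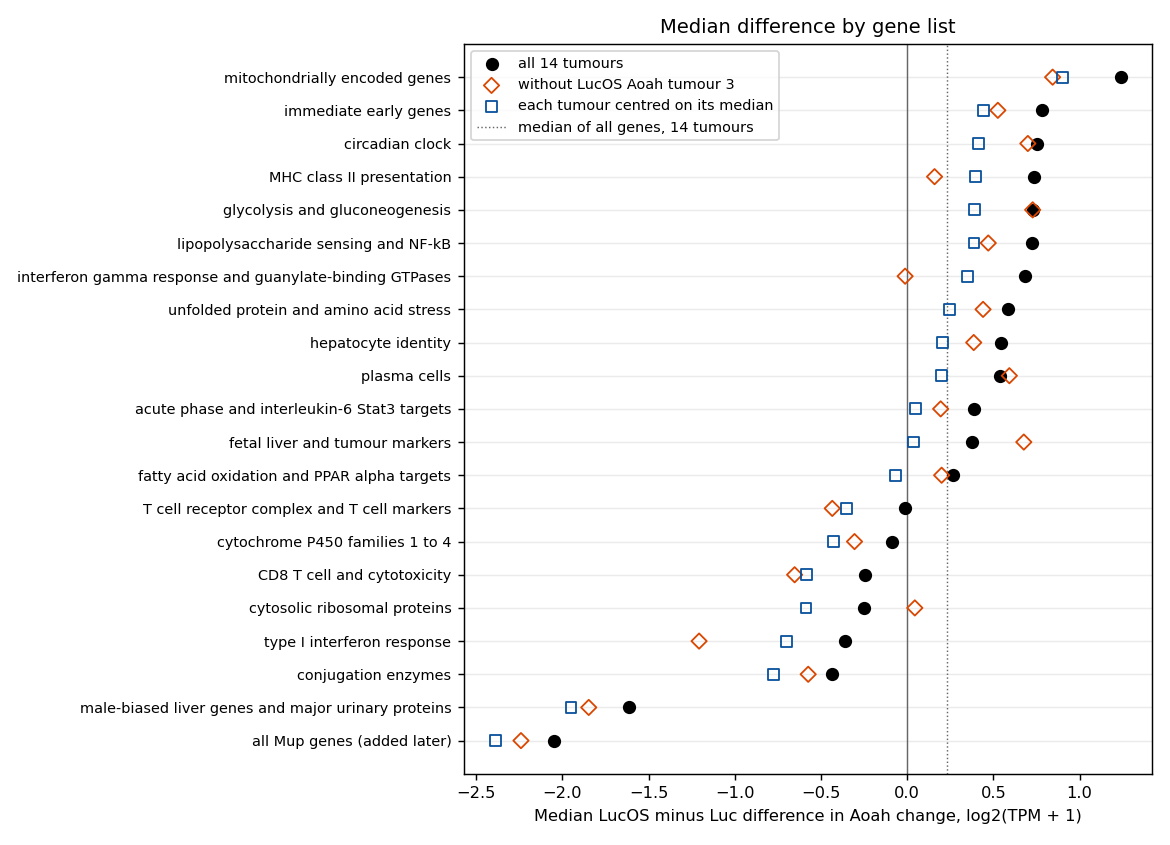
Median difference per gene list on the x axis, in log2(TPM + 1) units, for 21 lists on the y axis: all 14 tumours (black), without LucOS Aoah tumour 3 (open diamonds) and with each tumour centred on its own median (open squares). The 2 lists with Mup genes, which share 15 genes, are the lowest with all 14 tumours and without LucOS Aoah tumour 3. Centring moves every list by the same amount and so keeps their order. The interferon gamma, MHC class II and type I interferon lists move most without LucOS Aoah tumour 3.

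The 120 genes called in both models show what was common, and for these the size of the difference and its interval say how closely the models matched. The changes of all 13466 genes had a Pearson correlation of 0.549 between the models, which share no tumour; it is across genes, which are not independent. Of the 120, 14 had an unadjusted p under 0.05 for the difference. Inmt, an N-methyltransferase, stood at 1.09 to 3.15 TPM in Luc vector and 63.7 to 347 TPM in Luc Aoah tumours, and at 0.92 to 2.17 TPM and 45.1 to 121 TPM in LucOS. It rose by 5.44 and 4.84, with a difference of -0.60 (95% interval -2.08 to 0.88). Cyp2a5, which oxidises coumarin and nicotine, rose by 5.27 and 5.70, a difference of 0.43 (-1.73 to 2.59). The intervals of both leave room for differences of more than 2-fold.

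The glutathione transferase Gsta1, the carboxylesterase Ces1g, the cytochrome Cyp2c29, the cytochrome Cyp2c50 and the uridine phosphorylase Upp2 rose in both with intervals that spanned 0. Gsta1 differed by 0.50 (-1.33 to 2.33), Upp2 by -0.18 (-1.95 to 1.60) and Cyp2c50 by -1.55 (-3.52 to 0.42). For Sult2a8, Ces3a (-2.02, -3.80 to -0.25) and Cyp2c54 (-1.86, -3.67 to -0.05) the interval lay below 0. These 3 rose in both models and less so in LucOS at the unadjusted level. In the authors' deposited tables, 64 of 16315 identifiers had a gap between models past an adjusted p of 0.05, or 0.392%. Of these, 25 were higher and 39 lower in LucOS. All 56 of them that were tested on TPM had the same sign there. Both come from the same tumours and the 56 were picked for their gap, so the shared sign is not independent support.

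Among genes that fell in both, Socs3, the feedback inhibitor of Stat3 signalling, stood at 21.7 to 33.5 TPM in Luc vector and 1.46 to 3.79 TPM in Luc Aoah tumours. The LucOS ranges were 8.94 to 23.2 TPM with vector and 1.74 to 6.14 TPM with Aoah. It fell by 2.85 and 1.92, a difference of 0.93 (95% interval -0.17 to 2.03). Scara5, a ferritin receptor, differed by 1.21 (-0.00 to 2.43) and Akr1b7 by 1.00 (-0.25 to 2.26). Dnajc12, a co-chaperone, fell by 1.70 and 2.57 and differed by -0.87 (-1.94 to 0.21). Cxcl1, a neutrophil chemokine, differed by -0.07 (-1.19 to 1.05). The receptor Gucy2c, Cyp3a16, the progenitor marker Prom1, the enterokine Fgf15 and the imprinted Peg3 differed by -0.34 to 0.79, each with an interval that spanned 0.

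**Figure D5:**
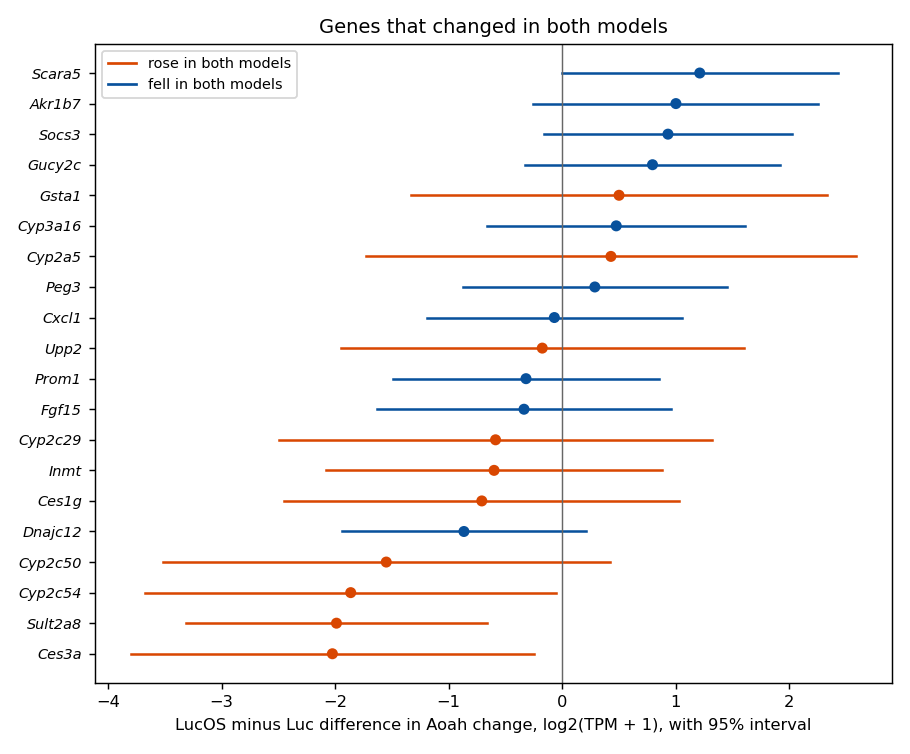
Difference between models on the x axis, in log2(TPM + 1) units with its 95% interval, for the 10 genes that rose and the 10 that fell in both models (y axis). Intervals of 17 genes include 0, and those of Cyp2c54, Sult2a8 and Ces3a lie below it.

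Aoah itself was high in every tumour given its plasmid. It stood at 504, 685, 284 and 519 TPM in Luc Aoah tumours and at 576, 589 and 931 TPM in LucOS Aoah tumours. Vector tumours of LucOS stood at 1.28, 1.59 and 3.43 TPM. Those of Luc split, at 18.6, 0.74, 54.8 and 0.89 TPM, so vector tumours 1 and 3 carried more Aoah RNA than the rest and still lay below every Aoah tumour. Aoah rose by 5.94 in Luc and by 7.84 in LucOS, a difference of 1.90 (95% interval -1.26 to 5.07, limma unadjusted p = 0.21). Without Luc vector tumours 1 and 3 the difference was -0.19.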

How the data were processed

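Bulk RNA-seq of 14 tumours was used as deposited. The expression table holds log2(TPM + 1) per gene symbol, and the TPM were made by the authors with RSEM on mm39, per the submitters' processing notes, which give no versions; TPM keeps no library depth, so the depth behind each value is unknown. Whether reads were assigned by strand is not stated. The 2 deposited DESeq2 tables, one per model, hold log2 fold changes, their standard errors and Wald statistics (score) and p-values, as the authors left them; which group is the numerator is not stated, and Aoah is positive in both. The deposited repertoire table mixes clone numbers, entropies, clonalities and isotype fractions, not scaled to depth.

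Each gene with at least 1 TPM in at least 3 tumours entered a limma fit of log2(TPM + 1) (version 3.58.1, R 4.3.3), with a mean for each of the 4 groups over all 14 tumours, a variance trend and robust moderation. The interaction, each model's change and their 95% intervals came from this single fit, which was tested on simulated data. In the authors' tables the difference of fold changes was divided by its combined standard error. Repertoire measures were tested by two-sided exact permutation, with 1225 permutations (700 for 2 measures that could not be computed in Luc vector tumour 2, which was left out of them).

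Genes were named by rule: Aoah; the 12 smallest interaction p-values and the 6 largest differences at unadjusted p under 0.05 in each direction; 10 genes rising and 10 falling in both models; and up to 4 genes for each of 48 lists by smallest p. All but the per-list names skip predicted genes and segments of antigen receptors. Mup1, Mup5, Mup6, Mup20, Mup21, Mup22, Xist, the non-Mup members of the male-biased list and the remaining higher genes of the lipopolysaccharide list were named after their values were seen. One gene that the rule names is not reported here. The comparison, the lists and the rule were chosen with earlier results of these data known. Alternatives were another pseudocount, other filters, median centring, quantile normalization, array weights, removal of small noncoding and mitochondrial genes, a replicate block, the authors' tables, and leaving out each tumour or a pair. Promoter sequences are from RefSeq (GRCm38.p6), matched by symbol for 13 of the 20 tested Mup genes; transcripts are from GENCODE M21. Figures were drawn with matplotlib 3.10.9.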

Additional observations from a re-analysis of the deposited data

Results flagged for a closer look

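Mup13 is flagged because its Aoah change differed between the models past the adjusted threshold, by -5.05 on the log2(TPM + 1) scale.

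A tumour far from the rest of its group, by Dixon's ratio of the gap to the group's range, was found in 9 of 244 gene groups of 4 tumours checked, or 3.69%, where chance flags about 1 in 20. In Luc vector tumours the ratio was 0.954 for Nudt7 (tumour 3 low, at 47.8 TPM), 0.887 for Tagln (tumour 2 low, at 3.17 TPM), 0.860 for Cxcl9 (tumour 2 low, at 2.51 TPM), 0.903 for Cd3d (tumour 1 high, at 1.37 TPM), 0.942 for Mup1 (tumour 2 low, at 0.00 TPM) and 1.000 for Sult3a1 (tumour 2 at 0.05 TPM and the others at 0.00 TPM). In Luc Aoah tumours it was 0.839 for Akap13 (tumour 2 high, at 2.06 TPM), 0.875 for Cfap44 (tumour 3 low, at 0.10 TPM) and 0.844 for Xaf1 (tumour 3 low, at 6.89 TPM).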

How the results depend on the processing

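The number of genes past an adjusted p of 0.05 for the difference, 1 in the limma fit, was 0 with a pseudocount of 0.1, 0 with median centring, 0 without small noncoding and mitochondrial genes, 0 without Luc vector tumours 1 and 3, 0 without the Aoah tumours numbered 3 of both models, 2 without a filter on low values (both predicted genes), 5238 with array weights, 64 in the authors' deposited tables, and 0 to 2 with each tumour left out. Genes at unadjusted p under 0.05 numbered 1317 with a pseudocount of 0.1 and 2122 with median centring, against 1378. The Luc count of 2988 became 1288 without a filter, 7515 with array weights, 355 without Luc vector tumours 1 and 3, 1374 without the Aoah tumours numbered 3, and 855 to 5251 with each tumour left out. The LucOS count of 130 became 15 without a filter, 218 with median centring, 256 with quantile normalization, 4278 with array weights, 22 and 15 without those pairs, and 13 to 353 with each tumour left out. The estimate of the array weights stopped before it converged. The cause was not tested, other than that fewer samples or more genes enter some of these fits. The Aoah difference changed sign to -0.19 without Luc vector tumours 1 and 3. Replicate numbers did not pair the tumours: the correlation of same-numbered deviations was -0.554 to 0.0956 over 7 pairs, and 1 pair correlated best with its own number. With the replicate block the counts were 0 for the difference, 618 for Luc and 0 for LucOS, and the higher genes at unadjusted p under 0.05 numbered 0 of 22 for glycolysis, 1 of 20 for lipopolysaccharide sensing, 1 of 15 for immediate early genes, 2 of 15 for the circadian clock, 1 of 25 for fatty acid oxidation and 0 of 13 for mitochondrially encoded genes. The repertoire count stayed at 0 of 20 in every setting run. Depth limits could not be given, since TPM holds no counts.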
